A study of Mus musculus with 7 samples.

Results

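The genes described here are 9 components and targets of the interferon response, Stat2, Irf1, Irf7, Irf9, Isg15, Ifit1, Ifit3, Bst2 and Rsad2, out of 29267 genes in the deposited tables. They were chosen by name as known parts of this response, and all 9 symbols were matched to 1 Ensembl identifier each. RNA was measured by RNA-Seq in 7 mouse libraries, 1 for each kind of cell, so no spread between cultures could be estimated and no test was run. The cells of 6 libraries came from OG2 mouse embryonic fibroblasts (MEFs), which carry an egfp reporter under the Oct4 promoter (GOF18ΔPE) and had received Oct4, Sox2, Klf4 and c-Myc by retrovirus. Reporter-positive (GFP+) and reporter-negative (GFP-) cells obtained in conventional mES medium (with serum, LIF and vitamin C) or in the serum-free, chemically defined 5C medium (with N2, bFGF, β-mercaptoethanol, vitamin C and LIF) were sorted by FACS on day 15 without passaging, and are called mES GFP+, mES GFP-, 5C GFP+ and 5C GFP- cells. Sorted 5C GFP+ cells had also been kept, for 20 passages by the labels, in naïve medium (LIF with inhibitors of MEK and GSK3) or in primed medium (induction with bFGF and activin A, maintenance with CHIR99021 and IWR-1), and these libraries are called 5C GFP+ (naive) and 5C GFP+ (primed). The published description also mentions a culture of only days in these media, so how long these cells had been in them is uncertain. The last library, R1 ESC (primed), came from the R1 mouse ES cell line after 20 passages in the primed state, which had been induced on MEF feeder cells. The retroviral factors and the reporter are therefore shared by all groups except R1 ESC (primed).

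Type I interferons bind a receptor made of IFNAR1 and IFNAR2 and activate the kinases JAK1 and TYK2, which phosphorylate STAT2. STAT2 and IRF9 are parts of the ISGF3 complex, which binds the interferon-stimulated response element (ISRE) in the promoters of its targets, while interferon gamma acts on its targets through the GAS element. Fibroblasts are known to respond strongly to interferon, whereas pluripotent stem cells are known to express few interferon targets and to respond weakly.

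Library totals ranged from 6108252 to 11496615 expected counts (RSEM's estimated reads per gene), and values are given in TPM, which is scaled by transcript length and library size and can be compared between genes. Ratios of 2 libraries carry exact 95% intervals from the counts, which cover the counting of reads alone and not differences between cultures, and a gene was called different at 2-fold or more on the log2(TPM + 1) scale when 1 library or both reached 1 TPM. Known markers separated the kinds of cells, although not every one of them did. The 7 naïve markers other than Klf4, one of the retroviral factors, summed to 1343 TPM in mES GFP+, 586 TPM in 5C GFP+ and 1069 TPM in 5C GFP+ (naive) cells, against 78.4 TPM in mES GFP-, 71.8 TPM in 5C GFP-, 7.65 TPM in 5C GFP+ (primed) and 18.9 TPM in R1 ESC (primed). Zfp42, 1 of 10 pluripotency markers, stood at 1.31 TPM in mES GFP- and 14.1 TPM in 5C GFP- cells, against 219 to 355 TPM in the 3 GFP+ libraries outside primed medium. In mES medium 7 of the 10 were at least 2-fold higher in GFP+ than in GFP- cells and 2 lower, Pou5f1 (Oct4) and Lin28a (24.2 against 75.9 TPM). In 5C medium 7 were higher and 0 lower, with Nanog at 119.5 TPM in 5C GFP- cells. Reads of Oct4, Sox2 and Klf4 cannot be divided between the retroviral and the endogenous genes. The 13 fibroblast markers, Col1a1 among them, were unevenly spread. They summed to 633 TPM in mES GFP-, 296 TPM in 5C GFP-, 265 TPM in R1 ESC (primed) and 91.8 TPM in 5C GFP+ (primed) cells, against 14.1 to 17.1 TPM in the other 3 libraries. The 12 immune cell markers summed to 11.4 to 60.6 TPM, highest in mES GFP- cells. The macrophage gene Cd68 made up most of this in every library, the other 11 reached at most 5.73 TPM, and the pan-leukocyte marker Ptprc was at 0.80 TPM or less. The 5 endothelial markers summed to 2.0 to 43.3 TPM, highest in 5C GFP- cells, where Tek made up 40.4 TPM.

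The promoters of the 9 genes were searched in RefSeq windows on GRCm38.p6, from 250 bases before to 50 bases after each annotated start, because both kinds of interferon act through these short promoter elements. The ISRE core was taken as GAAANNGAAA and the GAS core as TTCNNNGAA, each on both strands. The ISRE core was found in 6 of the 9 genes, against 3.99% of 27025 genes with a window, and the GAS core in 2 of the 9, against 9.55%. The stretches with the matches are shown 5′ to 3′ on the strand of each gene, with the matched letters in capitals, so that the members with several copies can be told from those with 1.

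Isg15: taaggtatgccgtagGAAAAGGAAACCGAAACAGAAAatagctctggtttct
Ifit1: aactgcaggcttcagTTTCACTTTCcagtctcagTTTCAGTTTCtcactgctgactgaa
Ifit3: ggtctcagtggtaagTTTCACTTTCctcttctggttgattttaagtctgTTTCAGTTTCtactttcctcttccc
Bst2: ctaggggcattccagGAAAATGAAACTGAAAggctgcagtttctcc
Rsad2: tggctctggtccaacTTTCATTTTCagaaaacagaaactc
Stat2: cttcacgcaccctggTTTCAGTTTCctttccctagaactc
Irf1: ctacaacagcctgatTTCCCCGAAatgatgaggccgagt

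The Isg15 stretch (chr4:156200860-156200911, minus strand) held 3 overlapping ISRE cores between 57 and 78 bases before the start. Ifit1 (chr19:34640770-34640828, plus strand) and Ifit3 (chr19:34583358-34583431, plus strand) each held 2 separate copies, and Bst2 (chr8:71537572-71537617, minus strand) held 2 overlapping copies. Rsad2 (chr12:26456548-26456587, minus strand) and Stat2 (chr10:128270261-128270300, plus strand) held 1 copy each. The letters shown for Irf1 (chr11:53769909-53769947, plus strand) are its GAS core, and in Bst2 a GAS core overlapped the ISRE cores. In the windows of Irf7 and Irf9 neither set of letters was found. The window of Ifit3b, a near copy of Ifit3, held the same stretch letter for letter. Of 40 further ISGF3 target genes with a window, 16 (40.0%) held the ISRE core and 9 (22.5%) the GAS core. A match is a run of letters and not a measured binding site.

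In GRCm38 coordinates of GENCODE M21, the 9 protein-coding genes lie at chr10:128270559-128292849 (Stat2, plus strand), chr11:53770014-53778374 (Irf1, plus), chr7:141262706-141266481 (Irf7, minus), chr14:55603571-55610030 (Irf9, plus), chr4:156199424-156200818 (Isg15, minus), chr19:34640871-34650009 (Ifit1, plus), chr19:34583531-34588731 (Ifit3, plus), chr8:71534255-71537456 (Bst2, minus) and chr12:26442746-26456452 (Rsad2, minus). Of the 50-base windows in the annotated transcripts of Ifit3, 51.2% occurred also in Ifit3b, so the division of reads between this pair is uncertain. For Ifit1 the shared part was 7.13%, with Ifit1bl1 and Ifit1bl2, and for every other member it was at most 3.96%. Irf7 overlaps Phrf1 and Irf1 overlaps Gm17334 on the opposite strand, and Irf9 overlaps Rnf31 on its own strand. The library kit does not mark strand, so reads of such pairs cannot be fully told apart.

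**Figure D1:**
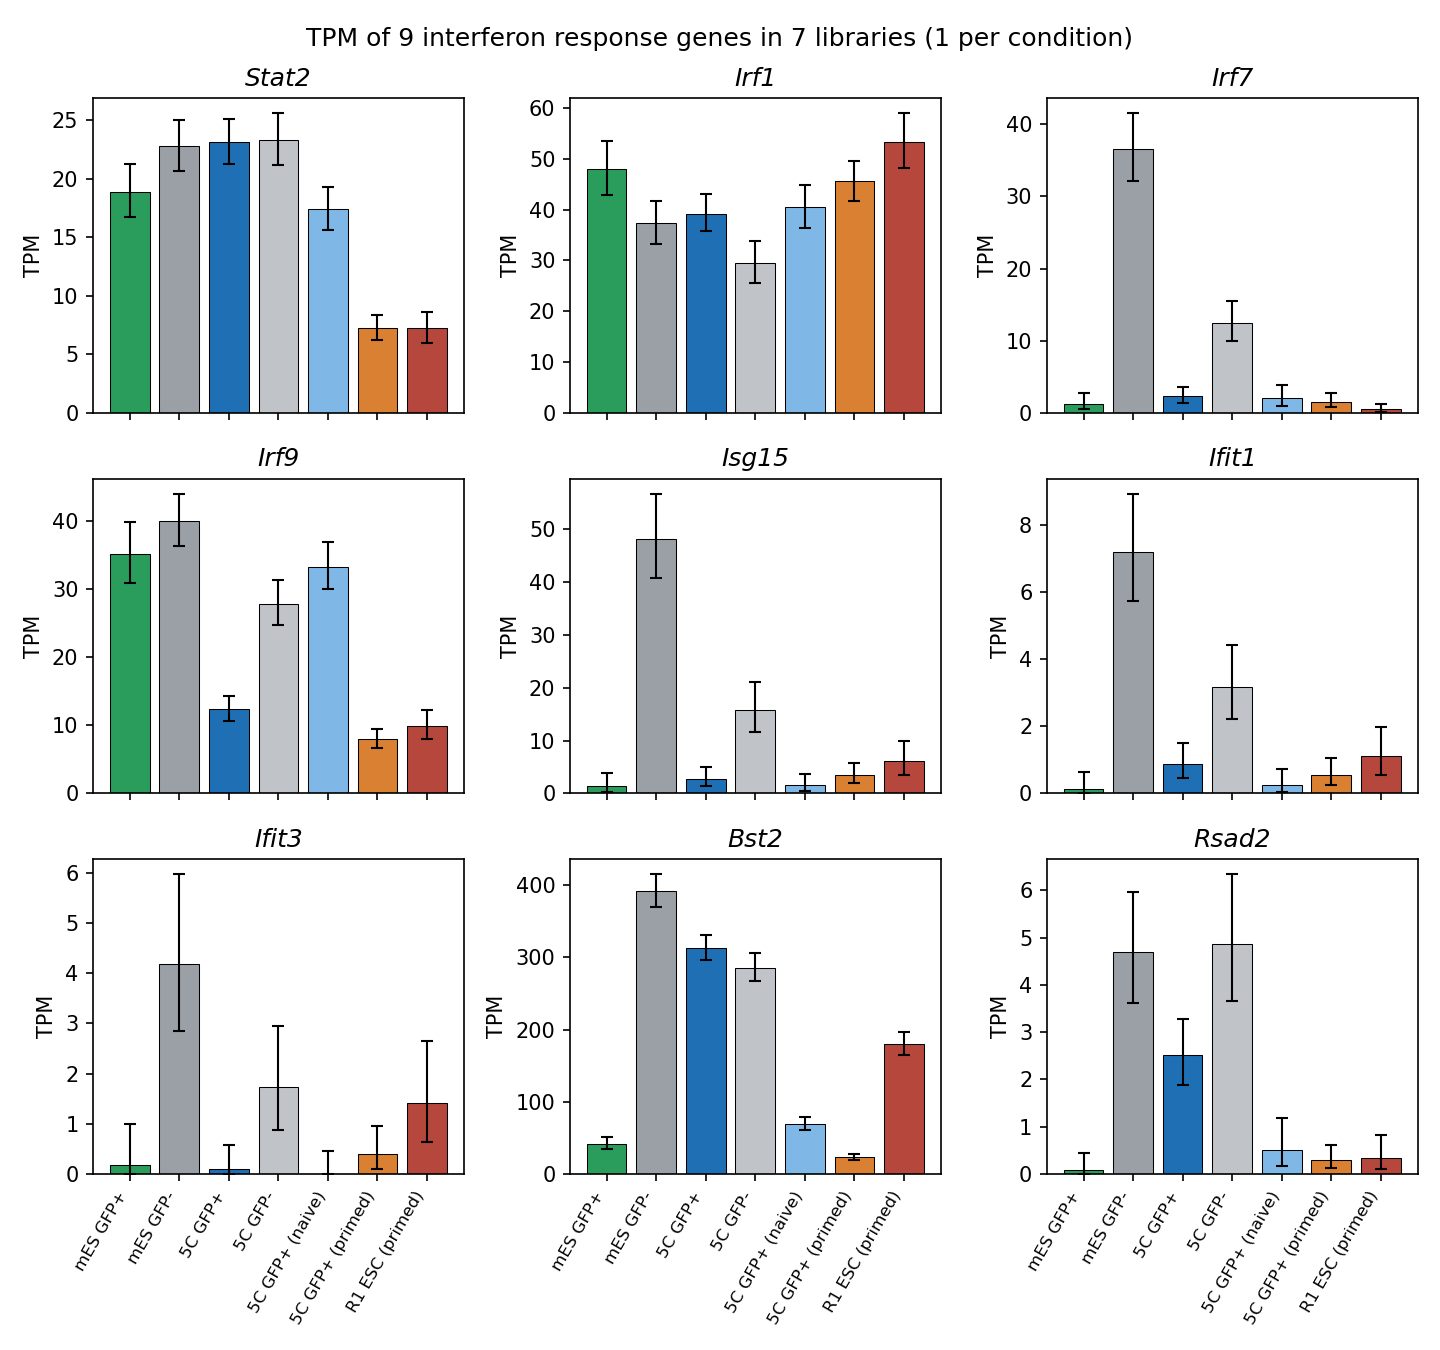
TPM (vertical axes, linear from 0, each panel with its own scale) of the 9 genes in the 7 libraries, 1 bar per library, with exact Poisson 95% intervals of the counts as error bars. Irf7, Isg15, Ifit1 and Ifit3 stand highest in the GFP- libraries. Bst2 is high in 5C GFP+ cells as well, while Rsad2 in these cells lies between the GFP- libraries and the rest. Stat2 is lowest in both primed libraries, and Irf1 varies least, from 29.5 to 53.3 TPM.

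The ligands of the pathway were close to absent. Of 20 type I and type III interferon genes, 14 had no read in any library, Ifnb1 among them, and the list summed to at most 0.79 TPM and 2 expected counts in a library. Ifng, the type II interferon, was at 0.21 TPM in 5C GFP- cells and at 0 in the other libraries. The chains of the type I receptor had reads in every library. Ifnar1 was at 26.1 TPM in mES GFP+, 39.5 in mES GFP-, 34.2 in 5C GFP+, 50.9 in 5C GFP-, 23.2 in 5C GFP+ (naive), 27.1 in 5C GFP+ (primed) and 32.2 in R1 ESC (primed). Ifnar2 spread more widely, from 8.79 TPM in 5C GFP+ (naive) to 62.9 TPM in mES GFP- cells.

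Of the ISGF3 components, Stat2, the signal transducer that brings the activation domain to the complex, was level in the sorted cells and low in primed cells. It was at 18.9 TPM in mES GFP+, 22.8 in mES GFP-, 23.1 in 5C GFP+, 23.3 in 5C GFP-, 17.4 in 5C GFP+ (naive), 7.24 in 5C GFP+ (primed) and 7.22 in R1 ESC (primed). The only large step in this order was between 5C GFP+ (naive) and 5C GFP+ (primed) cells, at 2.40-fold (2.01 to 2.87), and both primed libraries lay 1.00-fold apart (0.795 to 1.27). The 3 highest libraries did not differ from their neighbours among these 3 beyond counting error.

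Irf9, the DNA-binding part of ISGF3, was also low in primed cells, and in addition low in 5C GFP+ cells. It was at 35.1 TPM in mES GFP+, 40.0 in mES GFP-, 12.3 in 5C GFP+, 27.9 in 5C GFP-, 33.3 in 5C GFP+ (naive), 8.05 in 5C GFP+ (primed) and 9.89 in R1 ESC (primed). The largest gap between neighbours in this order, 2.26-fold (1.87 to 2.74), set 5C GFP+ and the 2 primed libraries apart from the other 4. Stat2 and Irf9 were the 2 members with both primed libraries below the other 5, a pattern that 12.3% of the 17733 genes reaching 1 TPM also had.

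Among the regulatory factors, Irf7, which amplifies interferon production and is itself an interferon target, was high only in GFP- cells among the 7 libraries. It was at 1.29 TPM in mES GFP+, 36.6 in mES GFP-, 2.33 in 5C GFP+, 12.5 in 5C GFP-, 2.09 in 5C GFP+ (naive), 1.53 in 5C GFP+ (primed) and 0.48 in R1 ESC (primed). The 5 low libraries rested on 4 to 20 reads and no neighbours among them differed beyond counting error. Irf1, an interferon target and an activator of antigen presentation genes, showed the reverse tendency at a small size. It was at 48.0, 37.3, 39.2, 29.5, 40.5, 45.5 and 53.3 TPM in the same order of libraries, highest in R1 ESC (primed) and lowest in 5C GFP- cells, with 1 of the 6 steps between neighbours beyond counting error. Irf1 was called different in 0 of 8 comparisons. Irf3, which is known to be present before stimulation, was at 38.6 to 65.0 TPM in all libraries.

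Isg15, a ubiquitin-like protein that is joined to other proteins during the response, was high in GFP- cells. It was at 1.32 TPM in mES GFP+, 48.1 in mES GFP-, 2.82 in 5C GFP+, 15.8 in 5C GFP-, 1.55 in 5C GFP+ (naive), 3.49 in 5C GFP+ (primed) and 6.09 in R1 ESC (primed). The other 5 libraries lay below both GFP- libraries, with R1 ESC (primed) the highest of the 5 and 2.59-fold (1.44 to 4.91) below 5C GFP- cells. Usp18, which removes ISG15 from its targets and dampens receptor signalling, was at 0.88, 27.7, 0.83, 5.80, 1.37, 2.72 and 1.99 TPM in the same order, so the pair had the same highest and second highest library.

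The IFIT proteins, which bind foreign RNA, were low throughout. Ifit1 was at 0.12 TPM (1 read) in mES GFP+, 7.19 in mES GFP-, 0.88 in 5C GFP+, 3.16 in 5C GFP-, 0.25 in 5C GFP+ (naive), 0.55 in 5C GFP+ (primed) and 1.11 in R1 ESC (primed). Ifit3 was at 0.18 TPM (1 read), 4.18, 0.10 (1 read), 1.73, 0, 0.40 and 1.42 in that order, where 3 reads would have given 0.380 TPM in the 5C GFP+ (naive) library without reads. Both were highest in mES GFP- and second in 5C GFP- cells, although for Ifit3 the step from 5C GFP- cells to R1 ESC (primed), at 1.22-fold (0.466 to 3.24), was within counting error. Ifit3b was at most 0.96 TPM, in mES GFP- cells.

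Bst2, or tetherin, which holds budding virus at the cell surface, was high in 5C GFP+ cells as well as in GFP- cells. It was at 42.2 TPM in mES GFP+, 392 in mES GFP-, 314 in 5C GFP+, 286 in 5C GFP-, 69.3 in 5C GFP+ (naive), 23.2 in 5C GFP+ (primed) and 180 in R1 ESC (primed). All 6 steps between neighbours exceeded counting error, and 5C GFP+ cells stood with the GFP- libraries rather than with the other GFP+ libraries. Rsad2, or viperin, which makes a chain-terminating nucleotide, was at lower levels throughout. Like Bst2 it was higher in 5C GFP+ than in mES GFP+ cells, but unlike Bst2 it was low in R1 ESC (primed). It was at 0.08 TPM (1 read) in mES GFP+, 4.69 in mES GFP-, 2.51 in 5C GFP+, 4.86 in 5C GFP-, 0.51 in 5C GFP+ (naive), 0.30 in 5C GFP+ (primed) and 0.35 in R1 ESC (primed). The GFP- pair was level, at 1.04-fold (0.710 to 1.51), and 5C GFP+ cells lay between this pair and the rest.

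In the comparison of sorted fractions, 5 of the 9 genes, Irf7, Isg15, Ifit1, Ifit3 and Rsad2, had both GFP- libraries above the other 5, against 22.7% of the 17733 genes reaching 1 TPM. The 13 fibroblast markers were also highest in sum in both GFP- libraries, and their part in the result was not tested. In such bulk samples, fewer cells of a type and less RNA per cell cannot be told apart.

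**Figure D2:**
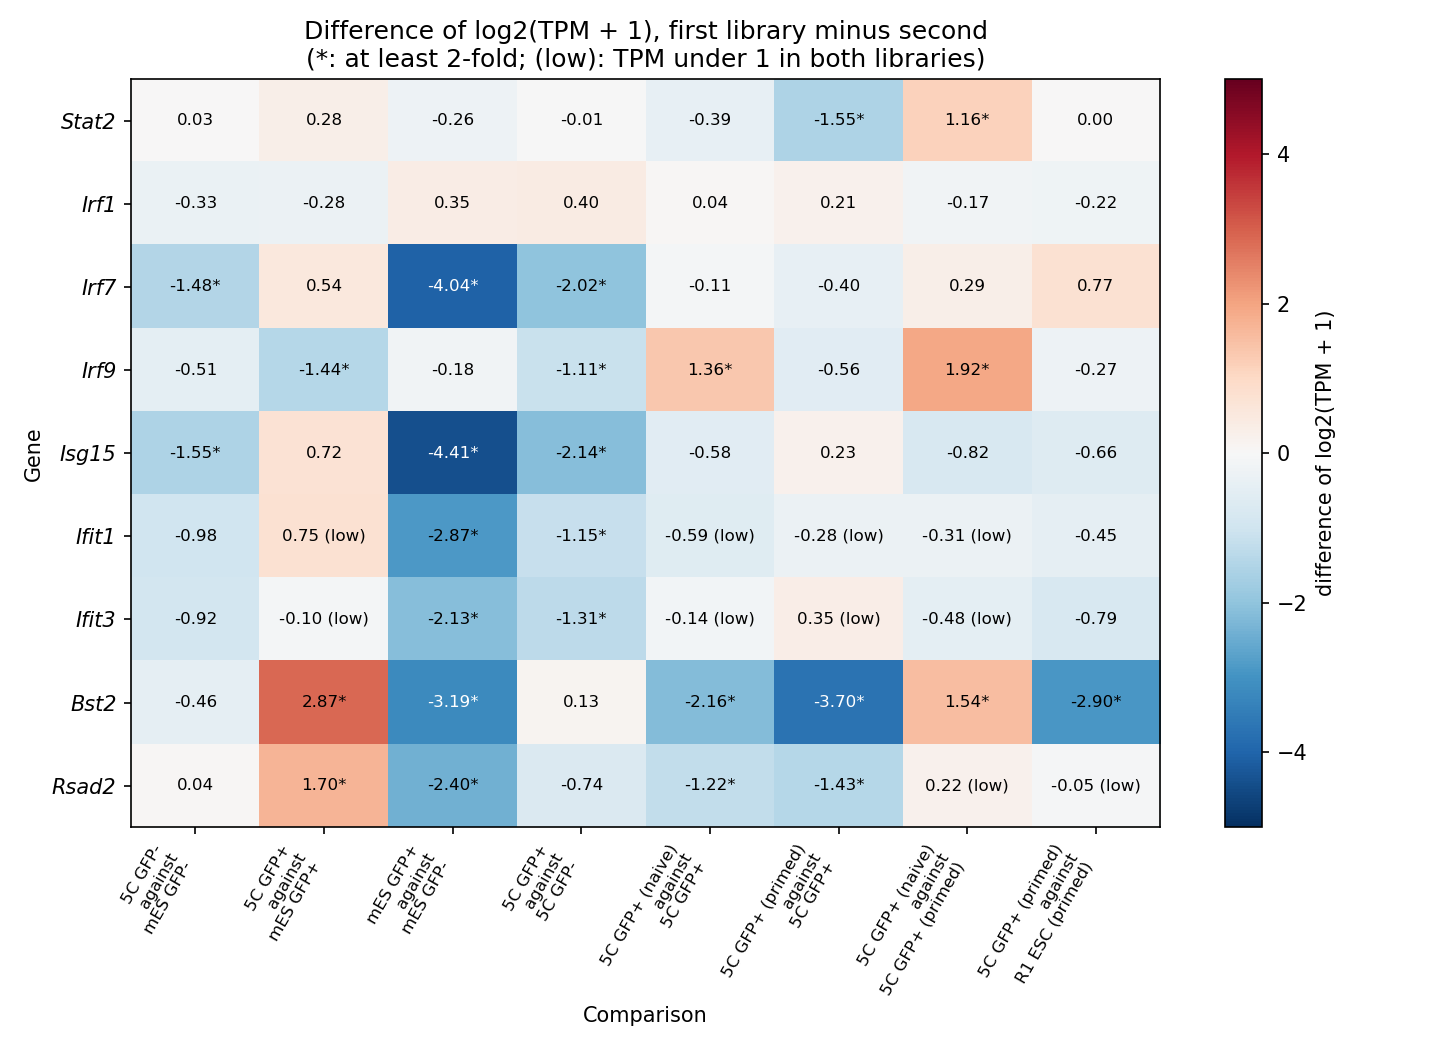
Difference of log2(TPM + 1), first library minus second, for the 9 genes (rows) in the 8 comparisons (columns), with red for higher and blue for lower in the first library. Asterisks mark differences of at least 2-fold, and "(low)" marks genes under 1 TPM in both libraries, which were not called. The strongest blue column is mES GFP+ against mES GFP-, with 6 genes marked.

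In mES medium, 6 of the 9 genes were at least 2-fold lower in GFP+ than in GFP- cells and 0 were higher. Among all genes 28.8% were lower and 17.9% higher, and the median difference was -2.40 for the 9 genes against -0.15 for all genes tested (log2). Isg15 was 36.5-fold lower (12.2 to 179, resting on 3 reads), Irf7 28.4-fold (12.8 to 78.1) and Bst2 9.31-fold (7.56 to 11.6). Ifit1, Ifit3 and Rsad2 rested on 1 read each in mES GFP+ cells, with ratios of 59.9 (10.8 to 2473), 23.2 (3.90 to 954) and 58.6 (10.0 to 2318). Stat2 was 1.20-fold (1.03 to 1.41) and Irf9 1.14-fold (0.973 to 1.34) lower, while Irf1 was 1.29-fold higher (1.10 to 1.51), all under the 2-fold limit. All 12 fibroblast markers reaching 1 TPM were lower in the GFP+ library, with sums of 16.5 against 633 TPM. So were Csf1r (0.23 against 5.33 TPM), Cd68 (12.9 against 50.4 TPM) and Lyz2 (0 against 1.14 TPM) of the 5 immune markers reaching 1 TPM, with Cd3e higher, and all 4 endothelial markers reaching it, and the part of these cell types in the result was not tested.

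In 5C medium, 5 of the 9 genes were at least 2-fold lower in GFP+ than in GFP- cells and 0 were higher, against 22.6% and 8.45% of all genes, with a median difference of -1.11 against -0.25. Isg15 was 5.60-fold lower (2.86 to 12.0), Irf7 5.35-fold (3.25 to 9.20), Ifit1 3.59-fold (1.86 to 7.43) and Irf9 2.26-fold (1.87 to 2.74). Ifit3 rested on 1 read in 5C GFP+ cells, with a ratio of 17.3 (2.38 to 687). Rsad2 was 1.94-fold lower (1.30 to 2.88), and Bst2 was 1.10-fold higher (1.00 to 1.20). After rescaling TPM by median ratios the count was 3 in place of 5, and with FPKM it was 2. The number of all genes lower also fell, from 3538 to 2823 after rescaling and 2565 with FPKM. The fibroblast markers summed to 14.1 TPM in 5C GFP+ and 296 TPM in 5C GFP- cells, and their part in the result was not tested. Cd68 was higher in 5C GFP+ (42.7 TPM) than in 5C GFP- cells (20.1 TPM).

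The media were compared within each fraction. Among GFP- cells, 2 of 9 genes were at least 2-fold lower in 5C than in mES medium and 0 were higher, against 10.1% and 9.68% of all genes, with a median difference of -0.51 against 0.04. These were Isg15, at 0.328 times the mES level (0.230 to 0.460), and Irf7, at 0.341 times (0.262 to 0.439). Ifit1 at 0.439 times (0.288 to 0.663) and Ifit3 at 0.414 times (0.187 to 0.802) were just under the call on the log2(TPM + 1) scale, Irf9 was at 0.697 times (0.598 to 0.810) and Bst2 at 0.729 times (0.666 to 0.796), while Stat2 at 1.02 times and Rsad2 at 1.04 times did not differ beyond counting error. The fibroblast markers summed to 633 TPM in mES GFP- and 296 TPM in 5C GFP- cells. Of 12 reaching 1 TPM, 8 were at least 2-fold lower in 5C GFP- cells, 3 were neither, and Thy1 was higher, at 53.3 against 8.73 TPM. Csf1r, Cd68 and Lyz2 were also lower in 5C GFP- than in mES GFP- cells, as were the endothelial markers Cdh5, Kdr and Tie1, and the part of these cell types in the result was not tested.

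Among GFP+ cells, the 5C library was at least 2-fold higher for Bst2 and Rsad2 and lower for Irf9, which is 2 and 1 of the 7 genes above 1 TPM in either library, against 13.7% higher and 13.5% lower among all genes. Bst2 was 7.44-fold higher (6.05 to 9.24). Rsad2 stood at 53 reads against 1 read, a ratio of 31.4 (5.32 to 1245). Irf9 was at 0.351 times the mES level (0.288 to 0.427). Stat2 was 1.22-fold higher (1.06 to 1.42), Irf1 was at 0.818 times (0.707 to 0.945), and for Irf7 and Isg15 the intervals included 1. The summed fibroblast markers were 14.1 TPM in 5C GFP+ and 16.5 TPM in mES GFP+ cells. Of the 2 immune markers reaching 1 TPM, Cd68 was higher, at 42.7 against 12.9 TPM, and Cd3e lower, at 0.77 against 5.73 TPM. The endothelial marker Tek was at 22.7 against 7.49 TPM, and the part of these cell types in the result was not tested.

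Conversion of 5C GFP+ cells in naïve medium was accompanied by lower Bst2 and Rsad2 and higher Irf9. Of 7 genes tested, 2 were lower and 1 higher, against 17.5% and 10.0% of all genes, with a median difference of -0.39 against -0.10. Bst2 was 4.53-fold lower (3.93 to 5.24), Rsad2 4.92-fold lower (1.98 to 15.8, 5 reads), and Irf9 2.70-fold higher (2.26 to 3.26). The naïve comparison and the medium comparison share the 5C GFP+ library, so they are not independent of each other. Cd68, at 17.5 TPM, and Tek, at 4.06 TPM, were also lower in the naïve library. Cd3e was higher there, at 4.97 against 0.77 TPM, and the part of these cell types was not tested. In primed medium, 3 of 7 genes tested were lower and 0 higher than in 5C GFP+ cells, against 16.1% and 13.7% of all genes. These were Bst2, 13.5-fold lower (11.0 to 16.7), Rsad2, 8.37-fold lower (3.79 to 21.8), and Stat2, 3.20-fold lower (2.71 to 3.78). Irf9 was 1.53-fold lower (1.22 to 1.94), under the limit. Of 12 fibroblast markers reaching 1 TPM, 11 were higher in the primed library, with sums of 91.8 against 14.1 TPM, while Cd68 (10.8 TPM) and Tek (0.62 TPM) were lower, and their part was not tested.

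Between the converted cells, the naïve library was at least 2-fold higher for Irf9, Bst2 and Stat2, 3 of 6 genes tested, and lower for 0, against 16.7% and 22.2% of all genes. The differences were 4.13-fold (3.40 to 5.11), 2.98-fold (2.35 to 3.81) and 2.40-fold (2.01 to 2.87). Isg15 went the other way, at 0.444 times (0.126 to 1.29), on 5 reads in the naïve library. Between the primed cells of both origins, 1 of 8 genes tested was called. Bst2 was lower in 5C GFP+ (primed) than in R1 ESC (primed) by 7.76-fold (6.25 to 9.71), against 5.09% of all genes lower and 2.30% higher. Ifit3 at 0.282 times (0.061 to 0.964), Irf7 at 3.19 times (0.945 to 13.7) and Ifit1 at 0.495 times (0.181 to 1.31) passed 2-fold in TPM, but at these low levels not on the log2(TPM + 1) scale. The fibroblast markers summed to 91.8 TPM in 5C GFP+ (primed) and 265 TPM in R1 ESC (primed), whose primed state had been induced on feeder MEFs, and their part in the Bst2 difference was not tested.

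Other genes of the pathway were described from lists fixed by function. Of 9 receptor chains and kinases, 7 had both GFP- libraries above the other 5, against 22.7% of all genes. In mES medium 6 of 9 were at least 2-fold lower in GFP+ cells and 0 higher, against 28.8% and 17.9% of all genes, and in 5C medium 5 of 9 and 0, against 22.6% and 8.45%. Jak2, the kinase of the interferon gamma receptor, was at 4.48 TPM in mES GFP+, 38.0 in mES GFP-, 2.16 in 5C GFP+ and 19.9 in 5C GFP- cells. Ifngr1, a chain of that receptor, was at 1.77, 29.9, 5.07 and 24.5 TPM in the same order, and stood at 14.4 TPM in 5C GFP+ (primed) cells. Il10rb, shared by the type III interferon receptor, was at 0.73, 21.9, 0.81 and 18.2 TPM. The fibroblast markers, as given above, were high in the same 2 libraries, and their part in these differences was not tested.

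**Figure D3:**
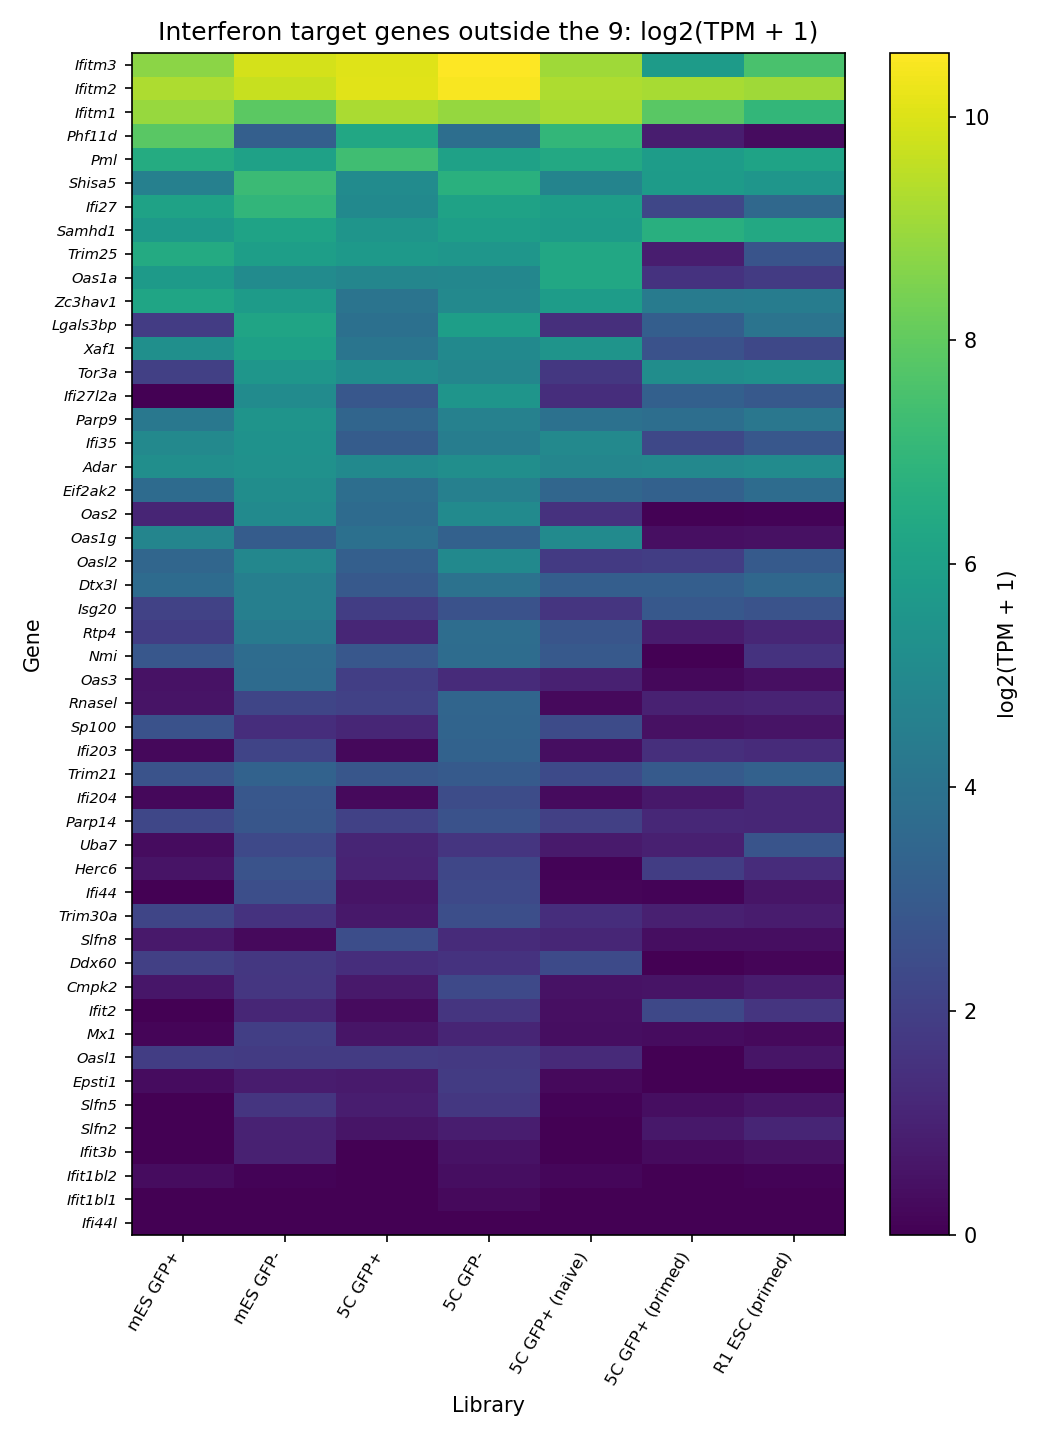
log2(TPM + 1) of the 50 further ISGF3 target genes with an entry in the tables (rows, ordered by their highest value) in the 7 libraries (columns), with yellow for high and dark blue for low. Phf11d, Trim25, Oas1a, Xaf1 and Ifi35 are dark in both primed columns and brighter in mES GFP+ and 5C GFP+ (naive), whereas Oas2 and Lgals3bp are brightest in the GFP- columns.

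The 50 further ISGF3 target genes fell into more than 1 pattern. Both GFP- libraries were above the other 5 for 22 of 46 genes reaching 1 TPM, among them Eif2ak2, the kinase PKR, at 35.5 TPM in mES GFP- and 23.6 TPM in 5C GFP- cells against 8.79 to 13.1 TPM elsewhere. This pattern was met by 22.7% of all genes. In mES medium 23 of 44 genes were lower and 3 higher in GFP+ cells, against 28.8% and 17.9% of all genes, with a median difference of -1.01 against -0.15. In 5C medium 20 of 45 were lower and 3 higher, against 22.6% and 8.45%, with a median of -0.88 against -0.25. Lgals3bp, a secreted glycoprotein, was at 70.8 TPM in mES GFP- and 60.5 TPM in 5C GFP- against 2.71 TPM in mES GFP+ and 13.8 TPM in 5C GFP+ cells. The fibroblast markers moved with these differences as given above, and their part was not tested.

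Both primed libraries were below the other 5 for 18 of the 46 genes, against 12.3% of all genes, and 5 of the 18 (Oas2, Parp14, Ifi27, Epsti1 and Nmi) were also among the 22 with both GFP- libraries highest. Trim25, a ubiquitin ligase that acts on the RNA sensor RIG-I, was at 87.1 TPM in mES GFP+, 59.4 in mES GFP-, 49.7 in 5C GFP+, 46.0 in 5C GFP-, 80.2 in 5C GFP+ (naive), 0.78 in 5C GFP+ (primed) and 5.74 in R1 ESC (primed). Oas1a, a sensor of double-stranded RNA, was at 52.5, 32.9, 27.7, 28.9, 80.0, 1.96 and 2.58 TPM in the same order. Ifitm3, which blocks virus entry, was at 423, 959, 1053, 1517, 535, 54.4 and 186 TPM. Phf11d was at 229 TPM in mES GFP+, 129 in 5C GFP+ (naive) and 0.78 in 5C GFP+ (primed) cells. Between the converted cells 16 of 36 genes were higher in the naïve and 8 in the primed library, against 16.7% and 22.2% of all genes, with a median of 0.64 against -0.14 for all genes. The Oas1 and Phf11 families hold near copies, so the levels of these single genes are uncertain where reads were shared. Primed 5C GFP+ cells and R1 ESC (primed) differed in 6 of 32 genes, all lower in the former and led by Trim25, Uba7 and Ifitm3, against 5.09% of all genes, where the summed fibroblast markers were also lower in the former.

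In the medium comparison of GFP+ cells, 8 of 37 ISGF3 targets were higher and 7 lower with 5C medium, against 13.7% and 13.5% of all genes, with a median difference of -0.17 against -0.06. Tor3a, an interferon-induced ATPase, was 11.3-fold higher (7.68 to 17.4) and Oas2 10.9-fold higher (6.37 to 20.2). Ifi27l2a, which has near copies, was at 6.29 TPM against 0. In the GFP- cells 5 of 46 were higher and 2 lower with 5C medium, against 9.68% and 10.1% of all genes, so the share higher was near the background. Sp100, a nuclear body protein, was 6.08-fold higher (3.18 to 11.6) and Oas3 at 0.121 times (0.079 to 0.178).

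Genes induced mainly through IRF1 and interferon gamma, which serve antigen presentation and the GTPase defence, kept another order from Irf1 itself. In GFP+ cells 7 of 12 were higher in 5C than in mES medium and 0 lower, against 13.7% and 13.5% of all genes, with a median difference of 1.39 against -0.06. After conversion in naïve medium 10 of 13 were lower and 1 higher, against 17.5% and 10.0%, with a median of -1.77 against -0.10. Between the converted cells 10 of 13 were lower in the naïve library and 0 higher, against 22.2% and 16.7%, with a median of -1.96 against -0.14, while for the ISGF3 targets the median had the opposite sign in this pair of libraries. The fibroblast markers summed to 17.1 TPM in 5C GFP+ (naive) and 91.8 TPM in 5C GFP+ (primed) cells, and their part in the result was not tested. Gbp2, a guanylate-binding protein, was at 0.37 TPM in mES GFP+, 18.1 in mES GFP-, 8.96 in 5C GFP+, 8.61 in 5C GFP-, 0.35 in 5C GFP+ (naive), 22.7 in 5C GFP+ (primed) and 32.6 in R1 ESC (primed). Psmb8, a subunit of the immunoproteasome, was at 0, 12.6, 5.89, 11.1, 0.14, 12.6 and 22.1 TPM in the same order. B2m, the light chain of MHC class I, was at 23.7, 221, 60.3, 310, 13.7, 100 and 151 TPM. All 3 were lowest in mES GFP+ and 5C GFP+ (naive) cells, where Irf9 was at 35.1 and 33.3 TPM. Irf9 was higher still in mES GFP- cells, at 40.0 TPM, where none of the 3 was low. Irgm1, a GTPase of the same list, was the 1 gene higher after conversion in naïve medium, at 25.9 against 11.6 TPM. It stood at 16.5 TPM in mES GFP+ and 37.2 TPM in mES GFP- cells.

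**Figure D4:**
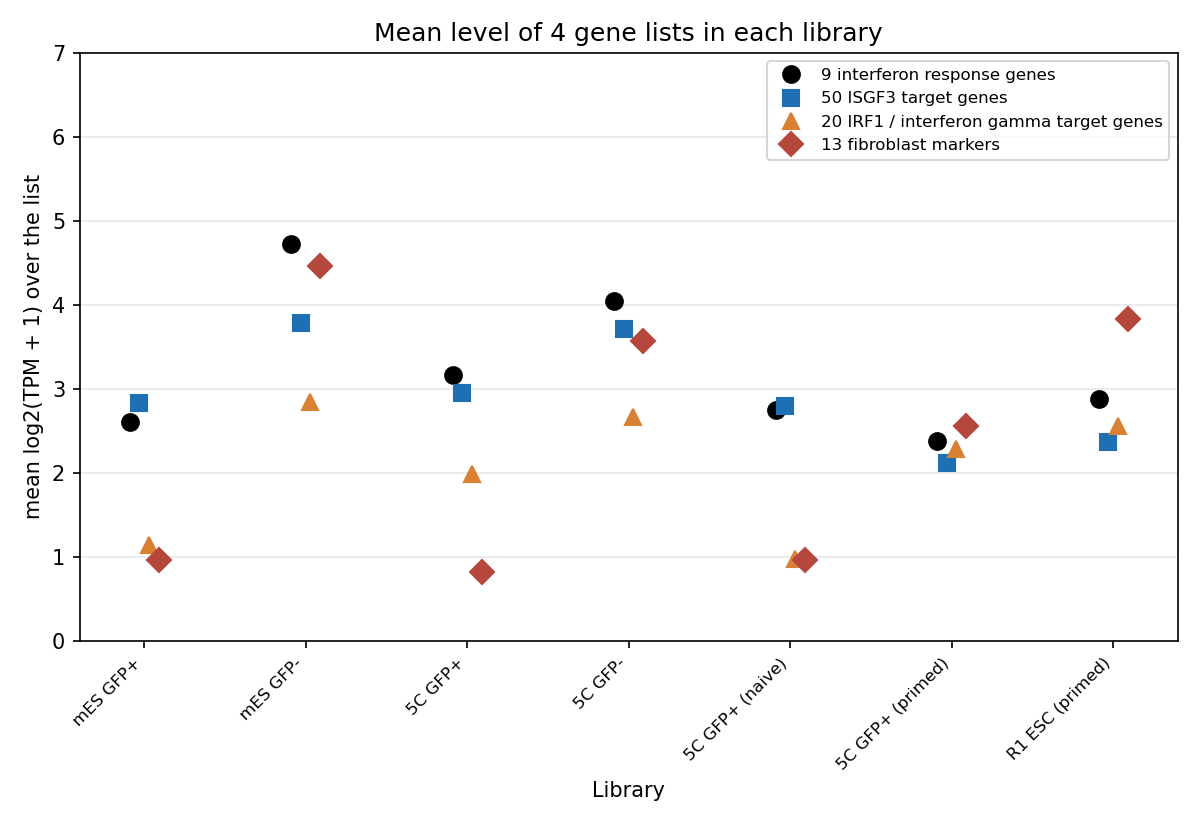
Mean log2(TPM + 1) (vertical axis from 0) of the 9 genes, the 50 ISGF3 targets, the 20 genes of the IRF1 and interferon gamma list and the 13 fibroblast markers in each of the 7 libraries, 1 point per list. The 9 genes and the fibroblast markers are both highest in mES GFP- cells, at 4.73 and 4.46. They lie apart in 5C GFP+ cells, at 3.17 and 0.82, as also in mES GFP+ (2.61 and 0.96) and 5C GFP+ (naive) cells (2.745 and 0.96). In 5C GFP+ (primed) (2.374 and 2.555) and R1 ESC (primed) (2.88 and 3.83) the fibroblast markers stand above the 9 genes.

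Over the 7 libraries the members' levels (log2(TPM + 1)) varied together to different degrees. This is given as a description, since the points share cell origin and library differences in fibroblast markers. Pearson's r lay between 0.76 and 0.99 for the 6 pairs among Irf7, Isg15, Ifit1 and Ifit3. It was 0.74 for Stat2 and Irf9 and 0.83 for Bst2 and Rsad2. These sets were not separate, since r was 0.87 for Irf7 and Rsad2, 0.86 for Ifit1 and Rsad2 and 0.75 for Ifit1 and Bst2. For all 8 pairs with Irf1 it was below 0, from -0.85 to -0.32. Outside the 9, the gene most like their mean over 13560 genes was Eif2ak2 (r = 0.988), followed by Nr1d2 (0.988), Pcyt1a (0.986), Flrt2 (0.986) and Lypd3 (0.986). The genes most like single members were Mzt1 for Stat2 (0.992), Xkr6 for Irf1 (0.974), Pigs for Irf7 (0.992), Ifi35 for Irf9 (0.997), Tmem35a for Isg15 (0.996), Plcb1 for Ifit1 (0.997), Runx2 for Ifit3 (0.994), Acot1 for Bst2 (0.95) and Lmna for Rsad2 (0.993). Each is the highest r among 13560 genes over only 7 libraries, so a high value is easily reached, and shared regulation was not tested.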

How the data were processed

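RNA of 7 libraries, 1 per group, was prepared with TRIzol and the TruSeq RNA kit v2 and sequenced on an Illumina MiSeq by the authors. Per the labels and methods, the authors aligned the reads with Bowtie and used RSEM (versions and annotation not given in the sources used here, build mm10) to produce the deposited expected counts per Ensembl gene, TPM and FPKM. The deposited expected counts are not normalized, the deposited TPM values are relative to transcript length and add up to a common total, and the deposited FPKM values are relative to length and mapped fragments. TPM was the main unit. Totals of 6108252 to 11496615 counts set the precision.

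Symbols named 28756 of 29267 identifiers. Differences were taken on log2(TPM + 1), which understates the change of low genes. Ratios of TPM have exact Clopper-Pearson 95% intervals and levels exact Poisson intervals, calculated after rounding the counts, and cover counting error only. Genes reaching 1 TPM in either library were called at 2-fold, and the share of all such genes called is given as background. Groups followed the sample titles. With 1 library per group no model was fitted and no p-value is given. The alternatives were a pseudocount of 0.1, a minimum of 5 TPM or none, FPKM, and TPM rescaled by median ratios. The 9 genes and the lists were chosen with earlier results of these data known. Named were the 9 genes, Ifnb1, Usp18, Ifit3b, Irf3, Ifnar1, Ifnar2, for each list and comparison the 3 largest called differences at 5 TPM or more, and the 5 genes most like the mean of the 9 and the 1 most like each. Other named genes (such as Lgals3bp, Psmb8 and Zfp42) were chosen after their values were seen. Mx2, Oas1b, Gbp5 and Gbp6 were not matched, and 1 further pathway gene is not reported here. The calculation was tested on simulated data. Calculations ran in Python 3.11.15 (scipy 1.17.1, pandas 2.3.3, numpy 2.4.6), and plots in matplotlib 3.10.9.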

Additional observations from a re-analysis of the deposited data

Results flagged for a closer look

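Bst2 moved in opposite directions with the medium in the sorted fractions. Its log2(TPM + 1) difference between 5C and mES medium was -0.46 in GFP- cells and 2.87 in GFP+ cells. It also differed between fractions in one medium and hardly in the other, with -3.19 for GFP+ against GFP- cells in mES medium and 0.13 in 5C medium. All 4 counting intervals lay off 1, and the pairs of differences share libraries.

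Ifit1 moved likewise with the medium, by -0.98 in GFP- cells and by 0.75 in GFP+ cells, where both libraries were under 1 TPM and mES GFP+ cells had 1 read. With 1 library per group these differences between fractions and media were not tested.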

How the results depend on the processing

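No difference that passed 2-fold changed its direction under the 5 alternatives set out above. Of 84 counts of members over all alternatives, 74 stayed within 1.5 times the main count and 10 did not. Of the 74, the 16 without a minimum could not change. A gene under 1 TPM in both libraries cannot pass 2-fold on the log2(TPM + 1) scale. With a pseudocount of 0.1, 4 members were lower in 5C GFP- than in mES GFP- cells in place of 2, 1 was lower in the naïve than in the primed cells in place of 0, and between 5C GFP+ (primed) and R1 ESC (primed) 1 was higher in place of 0 and 2 were lower in place of 1. With a minimum of 5 TPM fewer genes were tested, so that in 5C GFP+ cells 1 was higher than in mES GFP+ cells in place of 2, 3 were lower than in 5C GFP- cells in place of 5, and 1 was lower in the naïve cells in place of 2. With FPKM, 2 members were lower in 5C GFP+ than in 5C GFP- cells in place of 5, and 1 was lower in the naïve than in 5C GFP+ cells in place of 2. After median-ratio rescaling, 3 were lower in 5C GFP+ than in 5C GFP- cells. The calls over all genes changed as well. For this pair 3538 genes were lower in the main setting, 2823 after rescaling, 2565 with FPKM and 2517 with the minimum of 5 TPM. With the pseudocount of 0.1, 2055 of all genes were lower in 5C GFP- than in mES GFP- cells in place of 1598. The cause of the changes with FPKM and with rescaling was not tested beyond the shift of all genes. Rescaling moved the median of all genes by 0.14 (log2) in mES GFP+ against mES GFP-, 0.20 in 5C GFP+ against 5C GFP-, 0.11 in naïve against 5C GFP+ and 0.17 in naïve against primed cells. FPKM moved it by 0.12, 0.10, 0.07 and 0.07 in the same order. The FPKM values of a library summed to 0.50 to 0.57 times its TPM values, while the pseudocount and the minimum stayed at 1. Of 295 member differences, 292 moved by less than 0.50 times the width of their counting interval on the log2 scale. A changed minimum leaves the difference of a tested gene as it was. So 72 of the 292, without a minimum, and 41, with a minimum of 5 TPM, could not move. Of 640 counts over the other lists, 586 stayed within 1.5 times, but the 128 without a minimum among them could not change. Neither could the counts of the interferon genes themselves, of which none was tested. Without R1 ESC (primed), an alternative chosen after seeing the data, 5 members had both GFP- libraries above the rest as before, and 3 (Bst2 besides Stat2 and Irf9) were lowest in the 5C GFP+ (primed) library. Of all genes, 25.5% and 17.8% had these patterns without R1 ESC (primed), against 22.7% and 12.3% with it. No paired analysis was possible because each group has 1 library and no replicate numbers. For Ifit1, Ifit3 and Rsad2, counts of 0 to 13 in most low libraries limit the ratios to wide intervals.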

Other observations

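The sensors of foreign nucleic acid, described here for a wider view of the pathway, were mostly higher in the GFP- libraries. Both GFP- libraries were above the other 5 for 9 of 14 sensors and adaptors reaching 1 TPM, against 22.7% of all genes, and the fibroblast markers were high in sum in the same 2 libraries (633 and 296 TPM), their part not being tested. Ifih1, the sensor MDA5, was at 12.6 TPM in mES GFP- and 10.2 TPM in 5C GFP- cells against 0.18 to 1.94 TPM elsewhere. Zbp1, a sensor of Z-form nucleic acid, and Ddx58, the sensor RIG-I, were high in 5C GFP+ cells as well. Zbp1 was at 2.76 TPM in mES GFP+, 14.7 in mES GFP-, 30.0 in 5C GFP+, 15.3 in 5C GFP-, 5.92 in 5C GFP+ (naive), 0.68 in 5C GFP+ (primed) and 2.70 in R1 ESC (primed), and Ddx58 was at 9.88, 42.8, 48.1, 30.5, 18.9, 8.70 and 9.95 TPM in the same order. Aim2, a sensor of DNA, was at 74.4, 25.4, 94.4, 99.3, 69.2, 3.74 and 13.6 TPM.

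Irf2, which competes with IRF1 for the same promoter sites, spread most widely of the other interferon regulatory factors, with 0.12 TPM (1 read) in mES GFP+, 30.1 in mES GFP-, 4.5 in 5C GFP+, 19.2 in 5C GFP-, 0.18 in 5C GFP+ (naive), 2.18 in 5C GFP+ (primed) and 2.70 in R1 ESC (primed). Socs3, an inhibitor of JAK signalling induced by LIF, was at 39.6, 139, 149, 111, 65.7, 7.54 and 7.13 TPM in the same order, lowest in both primed libraries.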
